A study of Zea mays with 18 samples.

Results

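Leaves of maize seedlings carrying the zmzfp69 mutation were compared after 48 h at 4 °C and at 0 h, with 3 libraries in each group. The comparison covers 6 of the 18 libraries of the study and was chosen by genotype and time alone, from the sample titles. The other 12 libraries are mutant leaves at 24 h and leaves of B73, the unmutated inbred line used as control, at 0, 24 and 48 h. Titles place the mutant in B73. Before the cold, plants were raised to the 3-leaf stage at 25 °C in days of 16 h light, and a replicate is described as 50 seedlings. The gene is named for a zinc finger protein. Some label fields call the line a mutant and others a knock-down, and neither the kind of allele nor the number of lines is given. The treatment field reads 4 °C for the 0 h samples too, and the description field of mutant 48 h replicates 2 and 3 reads 0 h. Titles were followed in both cases, and 0 h was taken as before the transfer. The growth protocol speaks of plants kept at 25 °C and of a 24 h recovery, but no library is labelled as either, so cold and elapsed time cannot be told apart. No gene name in the table held zfp69 (0 matches), so the genotype was not checked against the targeted gene.

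As background, maize is a plant of warm climates whose leaves lose photosynthetic capacity in the cold. A drop in temperature is followed by calcium entry, by kinase cascades and by transcription factors of the DREB/CBF class, which bind a short element in the promoters of cold-regulated genes. Dehydrins, sugars and altered membrane lipids protect cells, while growth hormones and cell wall enzymes are turned down. The circadian clock gates many of these steps and is itself sensitive to temperature.

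Libraries held 14.8 to 19.1 M recovered reads (mutant, 16.3 ± 1.18 M at 0 h and 16.4 ± 1.87 M at 48 h, SD, n = 3). The deposited unit is FPKM, fragments per kilobase of gene scaled to a common depth, here set by size factors rather than by library totals. Of 50118 genes, 23141 reached 1 FPKM in 3 or more libraries and were tested on the log2(FPKM + 1) scale, which understates the changes of weakly expressed genes. On the first principal component, which held 42.2% of the variance, mutant 0 h libraries lay at -98.3 to -93.2 and mutant 48 h libraries at 108.7 to 112.3. Of the mutant 24 h libraries, replicate 2 stood apart at -68.6, against 25.6 and 40.6 for the others. It enters the shared estimate of the spread, and without it the count of genes called below was 8898. Leaf markers were abundant at both times: phosphoenolpyruvate carboxylase1, the enzyme of the first carbon fixation step in C4 mesophyll, stood at 5310.2, 2119 and 3826 FPKM at 0 h and at 10489, 16772 and 6335 FPKM at 48 h.

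After 48 h at 4 °C, mutant leaves held far more RNA of 12-oxo-phytodienoic acid reductases 1 and 2. RNA of a calcium pump, a gibberellin-inactivating oxidase and 3 of the 4 phosphoenolpyruvate carboxylase kinases also rose steeply. Members of the DREB factors, calcium sensors, MAP kinases and the PRR class of clock genes rose too. A gene annotated as indole-2-monooxygenase, a wall glucanase gene, 6 plasma membrane water channel genes and the senescence gene DIN1 were among those that fell. In all, 8438 genes (36.5% of those tested) were called changed in the mutant at an adjusted p under 0.05, with 4274 higher (18.5%) and 4164 lower (18%). Their median absolute change was 1.57 log2 units, and the median standard error over all tested genes was 0.38. Large rises outnumbered large falls with the deposited scaling. On the log2(FPKM + 1) scale the 0 h level limits how deep a fall can be, and sets no such limit on a rise. Large changes were not counted with library-total scaling. A change of at least 3 log2 units (8-fold) was called upward for 901 genes and downward for 203, and one of at least 5 log2 units (32-fold) for 138 and 16 genes. The 48 h libraries all lay above the 0 h libraries for 5794 of the tested genes (25%) and all below for 6111 (26.4%). Directions are relative to the typical gene. The divisor behind the FPKM values was 1.27 ± 0.0308 times the recovered reads at 0 h and 0.704 ± 0.0481 times at 48 h. With scaling by library totals, the median change of all tested genes was -0.63 in place of -0.03, and the calls became 2347 higher and 8169 lower, or 22.3% higher in place of 50.7%. All 2347 of those higher genes and all 4164 genes called lower with the deposited scaling had the same call under both. Library-total scaling moved the changes downward as a whole, so this agreement followed from the shift and is no check of the falls.

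The largest rise was that of 12-oxo-phytodienoic acid reductase1 (Zm00001d044908, chromosome 9, 6927730 to 6929377 on the minus strand, protein-coding), of a family of flavin-dependent reductases in which other members act in jasmonate synthesis. It stood at 0.561, 3.76 and 0.0888 FPKM in the 0 h libraries and at 2851, 4438 and 3801 FPKM in the 48 h libraries. The groups did not overlap, with the lowest 48 h library far above the highest 0 h library, and the change was 10.82 ± 0.98 log2 units (SE; adjusted p = 8.43e-06). Its neighbour 12-oxo-phytodienoic acid reductase2 (Zm00001d044906, chromosome 9, 6893412 to 6895013, plus strand) went from 4.2, 14.5 and 1.28 to 1006, 1249 and 1175 FPKM (7.65 ± 0.91, adjusted p = 3.88e-05). Of the 7 tested genes of this family, picked after the values were seen, 3 rose, 1 fell and 3 did not pass (3 higher and 3 lower with library-total scaling). At 24 h the mutant values of the first of these genes were 669, 53.5 and 1509.6 FPKM, with replicate 2 the lowest.

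Other large rises included genes of signalling, transport and hormone breakdown. Calcium-transporting ATPase 10 (Zm00001d028093, chromosome 1), a plasma membrane pump that moves calcium out of the cytosol, rose from 18.9, 30.1 and 15.6 to 3499, 2883 and 2883 FPKM (7.15 ± 1.01 log2 units, adjusted p = 0.000126). Gibberellin 2-oxidase3 (Zm00001d043411, chromosome 3) inactivates gibberellins, which promote growth. It stood at 0.849, 0.552 and 1.14 FPKM at 0 h and 188, 259 and 451 FPKM at 48 h (7.26 ± 0.88, adjusted p = 4.45e-05). Phosphate transporter protein7 (Zm00001d031875) went from 1.04, 0.962 and 0.705 to 408, 628 and 354 FPKM (7.89 log2 units), and the AP2-type DNA-binding factor AP2-EREBP-transcription factor 200 (Zm00001d022461) from 0.248, 0 and 0.0828 to 221, 322 and 146 FPKM (7.63). A xyloglucan endotransglucosylase/hydrolase (Zm00001d002410), of the enzymes that cut and rejoin wall xyloglucan, rose by 7.84 log2 units although 0 h replicate 3 was already at 7.19 FPKM. Both genes annotated as Monooxygenase 2 and adjacent in numbering (Zm00001d048416 and Zm00001d048417) rose by 7.13 and 7.59, and a heavy metal-associated isoprenylated protein (Zm00001d004138) by 7.44. One histone H4 gene, annotated H4C7 (Zm00001d026015), rose by 8.03 from 0.883, 0.347 and 2.21 to 397, 778 and 470.0 FPKM. Histone H4 copies are nearly identical, so reads assigned to a single copy are uncertain.

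The deepest falls included genes annotated to defence chemistry and to the wall. A gene annotated as indole-2-monooxygenase (Zm00001d035178, chromosome 6, 8037161 to 8039192, plus strand) stood at 79.1, 333 and 87.5 FPKM at 0 h. At 48 h it was listed at 0, 0.165 and 0 FPKM, a fall by 6.98 log2 units (SE 1.24, adjusted p = 0.000653). The enzyme of that name adds oxygen to indole on the way to the benzoxazinoid defence compounds of maize. Whether this gene codes for that enzyme was not checked. Lichenase-2 (Zm00001d038049, chromosome 6), which cuts mixed-linkage glucan of grass walls, was among the abundant genes at 0 h with 1315, 1892 and 1797 FPKM and stood at 5.29, 83.8 and 23.4 FPKM after 48 h (-6.13 ± 1.02, adjusted p = 0.000413). The 48 h libraries of this gene differed widely among themselves and still all lay below the 0 h libraries. A histone H1, the linker histone (Zm00001d045478), fell from 103, 137 and 126 to 0.7, 0.977 and 1.2 FPKM. SAUR36 (Zm00001d021459), of the small auxin-up RNA family, went from 80.1, 104 and 83.1 to 2.07, 0 and 0 FPKM (-5.94 ± 0.58, adjusted p = 1.28e-05). Peroxidase 52 (Zm00001d046184), a secreted class III peroxidase, fell from 172, 109 and 188 to 2.94, 2.26 and 4.58 FPKM, with a small standard error (-5.20 ± 0.49, adjusted p = 9.76e-06). Dormancy-associated protein homolog 3 (Zm00001d020607), the F-box/kelch-repeat protein At1g80440 (Zm00001d036925) and probable carboxylesterase 15 (Zm00001d007908) changed by -5.82, -5.33 and -5.22 log2 units.

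**Figure D1:**
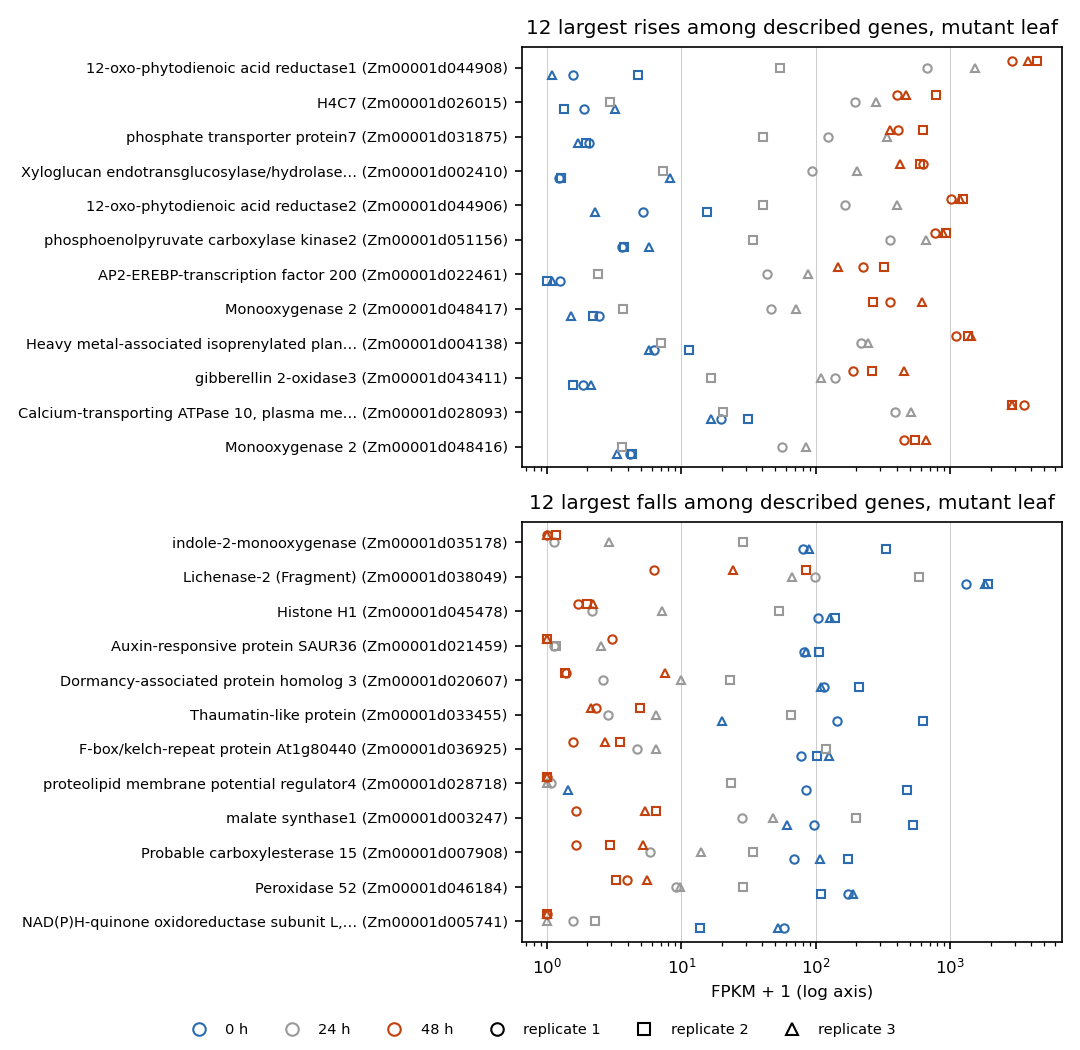
FPKM + 1 on a log axis for the 12 genes with the largest rise (upper panel) and the 12 with the largest fall (lower panel) in mutant leaf, 1 symbol per library, coloured by time and shaped by replicate number; genes with no description or with overlapping groups are not shown. The 48 h symbols (orange) lie apart from the 0 h symbols (blue) in each row, and the grey square of 24 h replicate 2 is the lowest of the 24 h symbols in each of the 12 upper rows.

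A few genes went from near silence to clear expression. In 16 genes each 0 h library was under 0.1 FPKM and each 48 h library at 10 FPKM or more. Among them, Ethylene-responsive transcription factor 14 (Zm00001d005309) was listed at 0 in all 0 h libraries and at 88.3, 46.1 and 48.2 FPKM at 48 h. AP2-EREBP-transcription factor 10 (Zm00001d017591) was likewise listed at 0 and then at 82.5, 52.2 and 26.3 FPKM. A gene described as Disease resistance protein Pik-1 (Zm00001d003363), of the receptors that sense pathogens inside the cell, was listed at 0 and then at 32.5, 73.5 and 416 FPKM, replicate 3 far above the others. The reverse held for 2 genes, Zm00001d019399, which has no description, and a gene annotated as NAD(P)H-quinone oxidoreductase subunit L (Zm00001d005741), described further below.

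Gene lists drawn from names and descriptions are given by their counts. Many of the lists held a larger share of called-higher genes than the 18.5% of all tested genes, among them the circadian clock (43.2%), the DREB/CBF factors (45.5%), the MAP kinase cascade (44.8%), calcium sensors and kinases (39.4%), ethylene (37.1%), heat shock factors (35%), WRKY factors (34.9%) and abscisic acid (33.1%). Nuclear photosystem genes (1.22%) and cytosolic ribosomal proteins (2.84%) lay far below it. The called-lower share of all tested genes was 18%, and aquaporins (31%), expansins and xyloglucan enzymes (28.9%) and autophagy and senescence genes (25%) lay above that. None of these shares was tested. Library-total scaling, whose counts are given beside the lists below, gave 2347 higher and 8169 lower among all 23141 tested genes. Library-total counts of a list are to be read beside these, since falls then outnumbered rises over all genes.

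**Figure D2:**
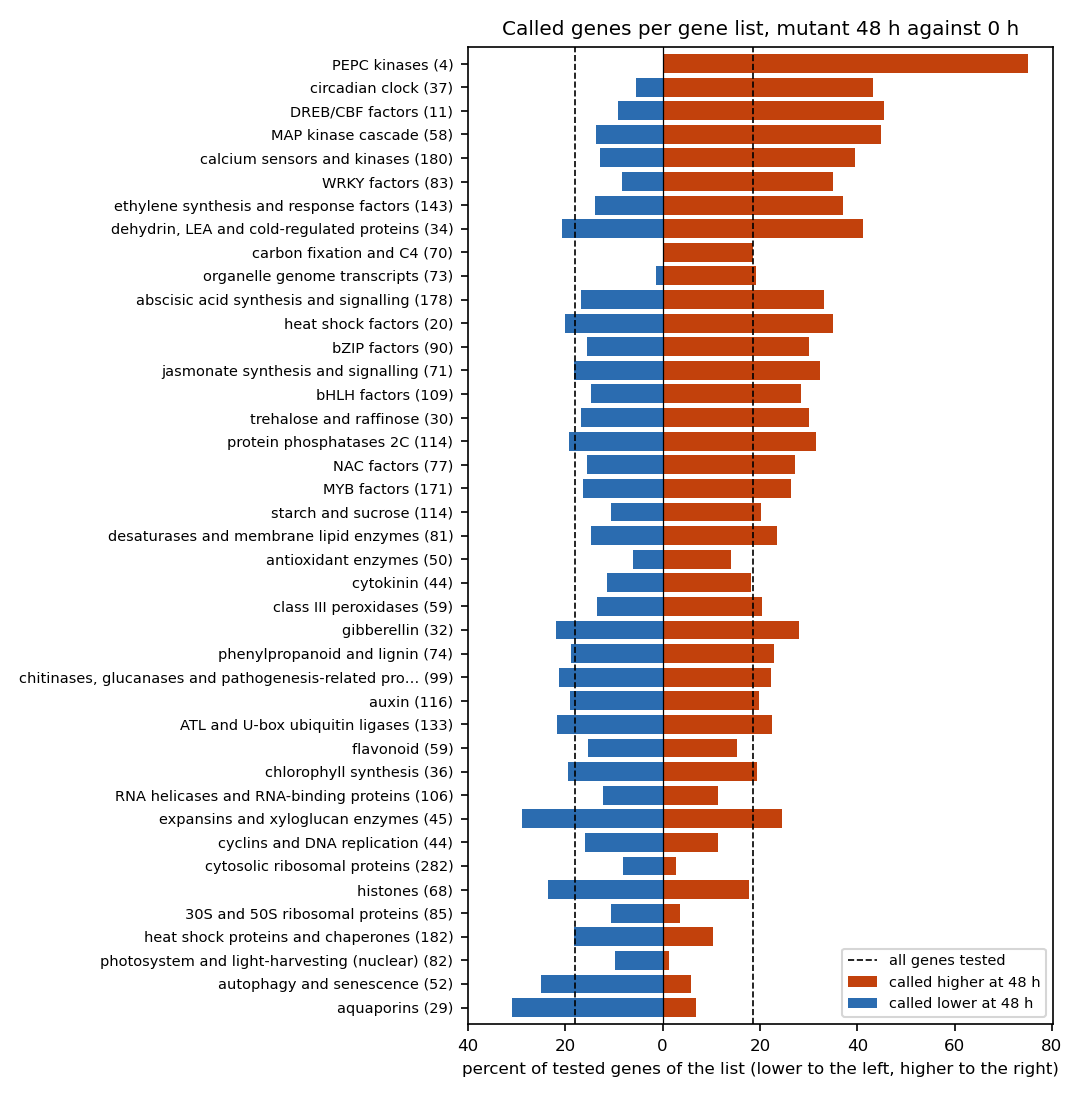
Percent of the tested genes of each list called higher (orange, to the right) and called lower (blue, to the left) in the mutant at 48 h, with the number of tested genes in brackets and dashed lines at the shares of all tested genes (18.5% and 18%). PEPC kinases (75%), DREB/CBF factors (45.5%) and the MAP kinase cascade (44.8%) extend farthest to the right, and aquaporins (31%) farthest to the left.

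Of 11 tested DREB/CBF factors, 5 rose and 1 fell, with a median change of 1.81 log2 units against -0.03 for all tested genes. AP2-EREBP-transcription factor 79 (Zm00001d031728, chromosome 1) was at 0, 0 and 0.0673 FPKM at 0 h and at 28.4, 48.3 and 16.8 FPKM at 48 h (4.85 ± 0.65, adjusted p = 8.66e-05). DRE-binding protein4 (Zm00001d036003, chromosome 6) went from 0.0657, 1.16 and 0.198 to 3.42, 12.8 and 12.6 FPKM (2.75 ± 0.57), with the groups not overlapping. A DREB2-type factor, Dehydration-responsive element-binding protein 2A (Zm00001d008665, chromosome 8), rose from 3.04, 2.79 and 2.37 to 20.3, 14.9 and 24.2 FPKM (2.46 ± 0.56, adjusted p = 0.00361). AP2-EREBP-transcription factors 115, 23 and 36 (Zm00001d021208, Zm00001d021207 and Zm00001d021205) lie close together on chromosome 7. The first went from 6.16, 3.66 and 16.0 to 11.6, 141 and 84.4 FPKM, with overlapping groups (2.69 ± 0.92, adjusted p = 0.0317). Its call was lost without 0 h replicate 1 (2.59) or 2 (2.28) and without 48 h replicate 2 (1.99) or 3 (2.35), and also with library-total scaling (1.90), quantile normalization (2.18), no filter and the compared groups alone. The second changed by 2.05 ± 0.88 (adjusted p = 0.0787) and the third went from 0, 0 and 0.0621 to 0.557, 1.09 and 6.43 FPKM (adjusted p = 0.128), and neither passed. DRE-binding protein 1 (Zm00001d032295, chromosome 1) went the other way, from 61.6, 129 and 60.7 to 2.51, 6.23 and 27.7 FPKM (-3.14 ± 0.64, adjusted p = 0.00169). With library-total scaling 3 members were higher and 1 lower. Besides factor 115, AP2-EREBP-transcription factor 22 (Zm00001d010048; 1.81 with the deposited scaling) then no longer passed, at 1.00.

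Of the 4 kinases that phosphorylate phosphoenolpyruvate carboxylase, and so keep it active in the presence of malate, 3 rose, also with library-total scaling. Phosphoenolpyruvate carboxylase kinase2 (Zm00001d051156, chromosome 4) stood at 2.64, 2.73 and 4.72 FPKM at 0 h and 765, 920.5 and 877 FPKM at 48 h (7.64 ± 0.98, adjusted p = 6.41e-05). The groups did not overlap, and the 48 h libraries lay close together. Kinase4 (Zm00001d003068) rose from 1.26, 0.525 and 1.38 to 148, 139 and 132 FPKM (6.12 ± 0.87) and kinase3 (Zm00001d017270) from 3.62, 2.45 and 1.34 to 129, 523 and 145 FPKM (6.01 ± 0.92). Kinase1 (Zm00001d018429) was at 11.7, 44.7 and 173 FPKM at 48 h and did not pass (adjusted p = 0.0657).

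**Figure D3:**
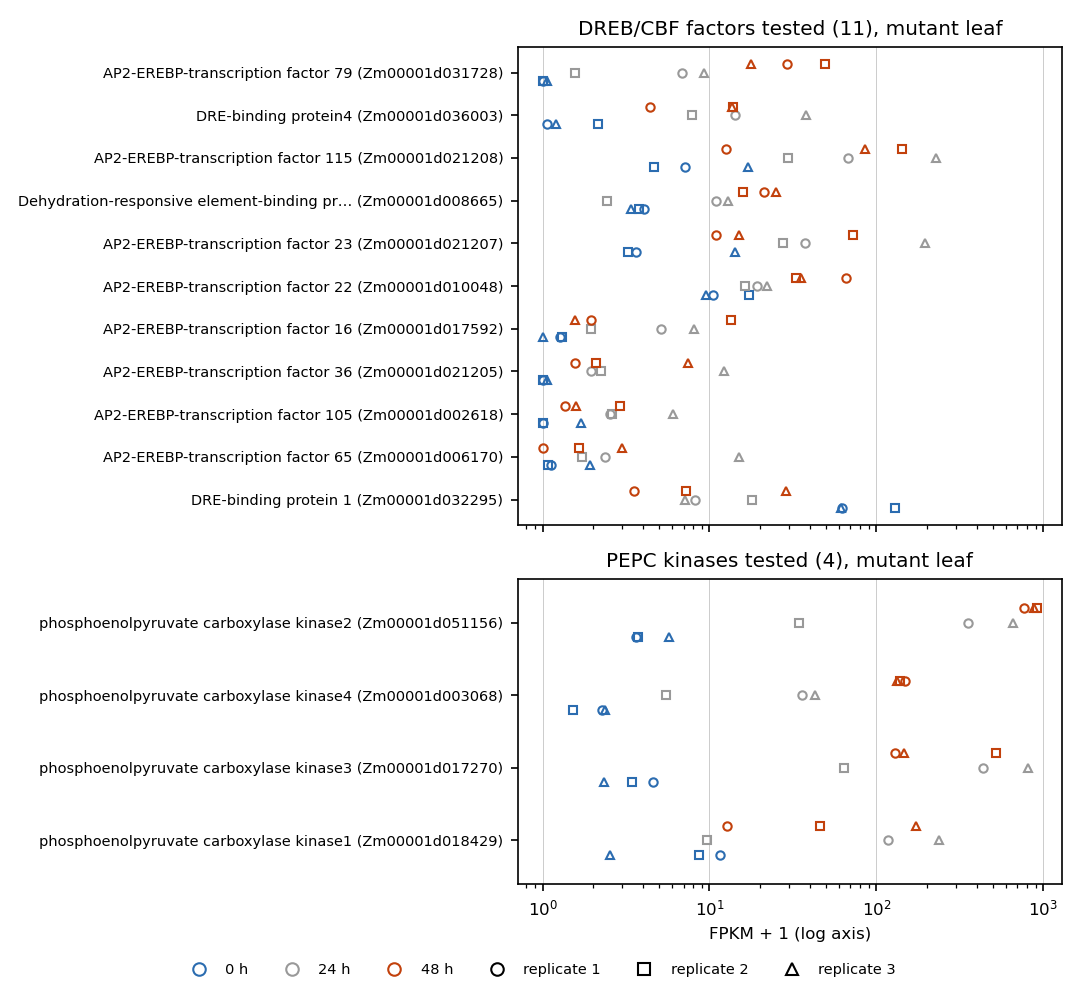
FPKM + 1 on a log axis for the 11 tested DREB/CBF factors and the 4 PEPC kinases (kinases of phosphoenolpyruvate carboxylase, from the top 2, 4, 3 and 1) in the 9 mutant libraries, coloured by time and shaped by replicate number. DRE-binding protein 1 is highest at 0 h, and PEPC kinase2 rises from 2.64 to 4.72 FPKM at 0 h to 765 FPKM or more at 48 h.

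Of 34 tested dehydrins, LEA (late embryogenesis abundant) and cold-regulated proteins, which protect proteins and membranes as cells lose water, 14 rose and 7 fell. Dehydrin DHN1 (Zm00001d017547, chromosome 5) went from 5.72, 17.8 and 5.96 to 168, 349.6 and 294 FPKM (4.76 ± 0.55, adjusted p = 3.48e-05). NaCl stress protein1 (Zm00001d024778) was already at 441, 1582 and 153 FPKM and reached 5257, 4347 and 5783 FPKM, among the 10 most abundant genes at 48 h (3.42 ± 0.74). A low temperature-induced protein15 gene (Zm00001d035440), picked after its values were seen, rose from 203, 245 and 298 to 1128, 1243 and 1279 FPKM (2.30 ± 0.41, adjusted p = 0.000698), with little spread in either group. Members annotated EARLY RESPONSIVE TO DEHYDRATION 15 split: Zm00001d048165 rose by 3.92 log2 units and Zm00001d038003, at 379, 279 and 460.2 FPKM at 0 h, fell to 47.6, 72.1 and 81.0 FPKM (-2.46 ± 0.45). Another dehydrin, dehydrin1 (Zm00001d037894), stood at 375, 834 and 1.73 FPKM at 0 h and 2.03, 1.12 and 1.59 FPKM at 48 h. Its call (adjusted p = 0.0417) was lost without 0 h replicate 1 (-4.22) or 2 (-3.65) and without 48 h replicate 1 (-5.34), 2 (-5.08) or 3 (-5.23). Without 48 h replicate 1, 13 members of the list were called in place of 21, and with library-total scaling 10 were higher and 10 lower.

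Of 37 tested clock genes, 16 rose and 2 fell (median 0.84 log2 units; 8 and 7 with library-total scaling). PRR proteins are repressors within the clock. The PRR95 gene Zm00001d021291 rose from 2.47, 4.17 and 1.49 to 124, 190.4 and 331 FPKM (5.81 ± 0.60, adjusted p = 1.84e-05), and its paralog Zm00001d006212 changed by 2.46 ± 0.48 (adjusted p = 0.0012). PRR73 (Zm00001d047761) rose by 1.70 ± 0.39 and gigantea2 (Zm00001d039589), which couples the clock to light and flowering, by 2.07 ± 0.53, though neither was called with library-total scaling (0.88 and 1.35). A gene annotated TIME FOR COFFEE (Zm00001d021858), a clock regulator known from Arabidopsis, went from 55.0, 61.7 and 48.7 to 439, 407 and 589 FPKM (3.08 ± 0.44). ELF4-LIKE 3 (Zm00001d048801), related to a component of the evening complex, fell from 6.59, 3.88 and 9.8 to 0.212, 0 and 0.509 FPKM (-2.59 ± 0.44), and REVEILLE 4 (Zm00001d023295) from 5.48, 4.75 and 4.04 to 0, 0.566 and 0 FPKM. Late hypocotyl elongation protein ortholog1 (Zm00001d024546) was at 71.5, 52.3 and 78.5 FPKM at 0 h and at 46.8, 87.8 and 70.4 FPKM at 48 h. Circadian clock associated1 (Zm00001d049543) was at 53.1, 42.1 and 70.3 FPKM and then at 57.7, 79.6 and 117 FPKM. Neither passed (adjusted p = 0.996 and 0.478). These genes, the second PRR95 gene, PRR73 and gigantea2, and the PRR1 gene Zm00001d017241 at 8.3, 10.5 and 7.93 and 7.3, 10.1 and 9.41 FPKM, were singled out after their values were seen. No source used here gives the clock time of sampling.

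Of 180 tested calcium sensors and the kinases that read them, 71 rose, 23 fell and 86 did not pass, while library-total scaling gave 46 higher and 48 lower. Calcium-binding protein CML27 (Zm00001d029028) went from 76.7, 212 and 52.1 to 6653, 4476 and 3732 FPKM (5.65 ± 0.72, adjusted p = 5.99e-05), and CML15 (Zm00001d009985) rose by 5.61 log2 units. Of 29 tested CML genes, 14 rose and 2 fell (10 and 5 with library-total scaling), and of 9 calmodulin-binding protein 60 genes, 5 rose and 0 fell (2 and 1). Among the CBL-interacting kinases, which act with calcineurin B-like calcium sensors, 13 of 37 rose and 7 fell (10 and 9). CBL-interacting protein kinase 6 (Zm00001d020497) was among the latter, from 35.7, 37.8 and 87.8 to 0.496, 1.82 and 4.17 FPKM (-4.17 ± 0.46, adjusted p = 2.28e-05). In the MAP kinase cascade 26 of 58 genes rose and 8 fell (21 and 15 with library-total scaling). MAP kinase1 (Zm00001d047758) reached 946, 1452 and 1028 FPKM from 48.0, 44.8 and 36.6 FPKM (4.68 ± 0.59), and a MAP kinase kinase kinase (Zm00001d038884) rose from 0.379, 1.01 and 0.951 to 79.2, 96.2 and 32.5 FPKM (5.19 ± 0.65). The families counted here and below within a list (CML, calmodulin-binding 60, CBL-interacting kinases, ZIM, lipoxygenases, gibberellin 2-oxidases, plasma membrane aquaporins) were picked after the values were seen.

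Jasmonate genes moved in both directions, with 23 of 71 higher and 13 lower (19 and 28 with library-total scaling). Among the ZIM/TIFY genes, which code for repressors of jasmonate responses and are induced by jasmonate, 14 of 28 rose and 2 fell (11 and 5). ZIM-transcription factor 28 (Zm00001d020614) went from 3.98, 1.33 and 7.09 to 135, 118 and 101 FPKM (4.70 ± 0.86, adjusted p = 0.000808), and ZIM-transcription factor 24 (Zm00001d029448) fell from 37.6, 44.3 and 43.1 to 6.99, 8.14 and 8.75 FPKM (-2.25 ± 0.36). Tassel seed1 (Zm00001d003533), a lipoxygenase of jasmonate synthesis known for its role in tassel sex determination, rose from 4.76, 9.66 and 3.98 to 211, 342 and 181 FPKM (5.13 ± 0.66, adjusted p = 6.47e-05). Of the 12 tested genes named lipoxygenase, which leave out tassel seed1 because of its name, 2 rose and 6 fell (2 and 8). Lipoxygenase11 (Zm00001d015852) fell from 8.42, 4.03 and 9.32 to 0.465, 0.782 and 0.932 FPKM (-2.20 ± 0.38).

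Abscisic acid is the hormone of water deficit, and its list had 59 of 178 genes higher and 30 lower (30 and 56 with library-total scaling). Its protein phosphatases 2C, some of which hold abscisic acid signalling off, made up 114 of the tested genes. They accounted for 36 of the rises and 22 of the falls (19 and 37 with library-total scaling). These phosphatases were gathered by name, and which of them act in abscisic acid signalling was not checked. Protein phosphatase 2C 34 (Zm00001d013220) rose from 6.24, 10.7 and 5.7 to 311, 299 and 424 FPKM (5.37 ± 0.62, adjusted p = 3.18e-05), and protein phosphatase 2C 12 (Zm00001d053566) fell from 33.7, 23.4 and 51.0 to 0.587, 2.91 and 2.22 FPKM (-3.70 ± 0.51). Nine-cis-epoxycarotenoid dioxygenase6 (Zm00001d051556), of the enzymes that make the committed step of abscisic acid synthesis, fell from 23.9, 55.7 and 20.5 to 0, 0.336 and 5.9 FPKM (-3.90 ± 0.59, adjusted p = 0.000207). SAPK4 (Zm00001d012263), a kinase of the abscisic acid and osmotic stress pathway in rice, rose from 0.223, 0.284 and 0.769 to 33.6, 25.0 and 20.6 FPKM (4.26 ± 0.84).

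Ethylene genes, mostly response factors, rose in 53 of 143 cases and fell in 20 (39 and 35 with library-total scaling). AP2-EREBP-transcription factor 111 (Zm00001d053195, chromosome 4) rose from 1.04, 1.27 and 0.708 to 241, 202 and 103 FPKM with a small error (6.43 ± 0.33, adjusted p = 3.33e-08), while its 24 h mean was 2.61 FPKM. Of 32 gibberellin genes, 9 rose and 7 fell (8 and 9 with library-total scaling), and among 10 gibberellin 2-oxidases 5 rose and 2 fell (4 and 2). GRAS-transcription factor 75 (Zm00001d006701) rose by 4.49 ± 0.68 log2 units to 159, 223 and 407 FPKM. Gibberellin 20-oxidase1 (Zm00001d034898), which makes gibberellin precursors, fell from 4.72, 5.03 and 4.09 to 1.15, 0.664 and 0.49 FPKM (-1.68 ± 0.42, adjusted p = 0.00609). This call was lost with a pseudocount of 0.1 and with limma-voom on recovered reads. Auxin genes were close to the background, with 23 of 116 higher and 22 lower (18 and 36 with library-total scaling). Aux/IAA-transcription factor 24 (Zm00001d018414), a repressor of auxin responses, rose from 5.65, 2.57 and 3.93 to 100.4, 157 and 391 FPKM (5.24 ± 0.75), and SAUR41 (Zm00001d026308) from 0, 0.144 and 2.46 to 146, 170.3 and 153 FPKM (6.63 ± 1.02). Of 44 cytokinin genes 8 rose (18.2%), a share near the 18.5% of all tested genes. The 5 that fell (11.4%) were a smaller share than the 18% of all tested genes. Library-total scaling gave 7 higher and 16 lower.

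Among transcription factor families, WRKY factors, many of which act in defence, had 29 of 83 genes higher and 7 lower (19 and 12 with library-total scaling). WRKY-transcription factor 32 (Zm00001d028962) rose from 22.1, 29.2 and 16.8 to 317, 283 and 360.3 FPKM (3.79 ± 0.59, adjusted p = 0.000254). NAC factors rose in 21 of 77 cases and fell in 12 (16 and 19). NAC-transcription factor 23 (Zm00001d012527) went from 13.9, 8.91 and 15.4 to 547, 763 and 555 FPKM (5.52 ± 0.53, adjusted p = 1.16e-05) and NAC-transcription factor 110 (Zm00001d024268) from 13.3, 12.4 and 15.2 to 0.391, 0.954 and 0.469 FPKM (-3.20 ± 0.42). MYB factors had 45 of 171 higher and 28 lower (27 and 50). The fall of myb transcription factor 42 (Zm00001d053220), from 39.4, 23.1 and 58.5 to 2.17, 4.37 and 1.48 FPKM, and of myb transcription factor38 (Zm00001d032024), from 25.0, 26.4 and 39.0 to 1.43, 2.98 and 4.41 FPKM, were each above 3 log2 units. Of 90 bZIP factors 27 rose and 14 fell (22 and 28), and of 109 bHLH factors 31 rose and 16 fell (20 and 24). The bZIP-transcription factor 74 (Zm00001d020823) rose from 0.468, 0.092 and 0.47 to 22.3, 37.0 and 174 FPKM, with 48 h replicate 3 the highest, and bHLH-transcription factor 117 (Zm00001d024783) from 1.57, 1.56 and 1.64 to 49.7, 69.5 and 110.3 FPKM. Heat shock factors had 7 of 20 higher and 4 lower (6 and 4). HSF-transcription factor 6 (Zm00001d016674) rose from 1.53, 1.24 and 0.479 to 118, 113 and 119 FPKM (5.86 ± 0.45, adjusted p = 5.67e-06). Second values in brackets are the higher and lower counts with library-total scaling.

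Few photosynthesis genes coded in the nucleus passed the test. Of 82 tested photosystem and light-harvesting genes, 1 rose and 8 fell, and 73 did not pass. Chlorophyll a-b binding protein CP29.1 (Zm00001d006587), which links the photosystem II core to its outer antenna, fell from 796, 528 and 736 to 44.6, 146 and 124 FPKM (-2.84 ± 0.61, adjusted p = 0.00232). All 48 h libraries of this gene lay below the 0 h libraries. Photosystem I chlorophyll a/b-binding protein 6 (Zm00001d005814) was the 1 riser, from 129.6, 36.7 and 115 to 267, 513 and 340.0 FPKM (2.12 ± 0.77, adjusted p = 0.0415). Its call was lost without 0 h replicate 2 (1.55) or 3 (2.36) and without 48 h replicate 1 (2.34), 2 (1.87) or 3 (2.16), with no filter, and with library-total scaling (1.27) or quantile normalization (1.06). The count of 9 called genes was 3 without 0 h replicate 3, 4 without 0 h replicate 1 or 48 h replicate 1. With library-total scaling 0 were higher and 16 lower, and with quantile normalization 0 and 19. In chlorophyll synthesis 7 of 36 genes rose and 7 fell (4 and 15 with library-total scaling). A magnesium chelatase subunit ChlH gene (Zm00001d001850), of the enzyme that puts magnesium into the ring, rose from 0.521, 0.833 and 0.168 to 22.9, 47.2 and 16.8 FPKM (4.21 ± 0.37, adjusted p = 7.8e-06). Glutamyl-tRNA reductase 1 (Zm00001d032532), the entry point of the pathway, rose from 28.6, 18.8 and 27.1 to 324, 334 and 379 FPKM (3.77 ± 0.60). Geranylgeranyl hydrogenase1 (Zm00001d018034), which makes the phytol tail, fell from 552, 359 and 609.8 to 49.9, 131 and 110.4 FPKM (-2.45 ± 0.58, adjusted p = 0.0045).

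Carbon fixation and C4 genes had 13 of 70 higher and 0 lower, against 18.5% and 18% for all tested genes, with a median of 0.75 log2 units; library-total scaling gave 8 and 8, and 8 were called without 0 h replicate 3. For the 3 abundant enzymes that follow, the 48 h libraries all lay above the 0 h libraries on the deposited scale, and none passed. The same separation held for 25% of all tested genes. Ribulose bisphosphate carboxylase small subunit1 (Zm00001d052595), the bundle sheath Rubisco subunit, was at 2363, 991 and 2944 FPKM and then 6844, 8845 and 6229 FPKM (1.92 ± 0.78, adjusted p = 0.0652). Phosphoenolpyruvate carboxylase1 changed by 1.56 ± 0.74 (adjusted p = 0.108) and carbonic anhydrase1 (Zm00001d044099), picked after its values were seen, by 1.28 ± 0.65 (adjusted p = 0.135). With library-total scaling the groups of phosphoenolpyruvate carboxylase1 overlapped, and those of the Rubisco subunit did not. Risers included paralogs of lower 0 h level. A carbonic anhydrase gene (Zm00001d044095) went from 5.95, 12.5 and 2.92 to 294, 386 and 364 FPKM (5.60 ± 0.62, adjusted p = 2.28e-05), and a chloroplast NADP-dependent malic enzyme gene (Zm00001d037693) from 1.72, 1.74 and 3.21 to 159.5, 51.9 and 103 FPKM (4.93 ± 0.56). Summed over 16 mesophyll markers of the C4 pathway, FPKM was 7266 to 13199 at 0 h and 18948 to 35840 at 48 h, and over 18 bundle sheath markers 5075 to 10089.9 and 17830 to 27269. These sums do not overlap between the times. With library-total scaling the mesophyll sums, 9004 to 16770.4 and 12891 to 24074, overlapped, and the bundle sheath sums, 6289 to 13125 and 13532 to 18316, did not. Of the tested markers 2 of 14 and 2 of 10 rose, and 1 bundle sheath marker was called without 0 h replicate 3 or 48 h replicate 3. Of these markers, 1 of 16 and 6 of 18 had no read in any library. Epidermis and cuticle markers summed to 367 to 769.7 FPKM and then 264 to 360.1 (2 of 29 higher, 6 lower), vascular markers to 364 to 902 and 327 to 383 (3 of 16 higher, 4 lower, and 4 called without 0 h replicate 1 or 48 h replicate 1 or 2), and markers of dividing cells to 2759 to 2939 and 3665 to 4867 (14 of 80 higher, 16 lower). With library-total scaling the vascular sums no longer overlapped (474 to 1118 and 222 to 290.4), and those of dividing cells overlapped (3423 to 3823 and 2493 to 3694). In whole leaves, fewer cells of a type and less RNA per cell cannot be told apart, and the part of cell type in these results was not tested.

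Transcripts of the organelle genomes took 0.0628% of reads at 0 h and 0.112% at 48 h in these poly(A)-selected libraries. Of 73 tested, 14 were called higher and 1 lower, but the values were uneven among the 48 h libraries. The plastid gene ZemaCt121 was at 3.83, 0 and 2.56 FPKM at 0 h and 609.9, 90.7 and 31.7 FPKM at 48 h, with replicate 1 far above the others (5.57 ± 1.57, adjusted p = 0.0121). Without 48 h replicate 1 its change was 4.41 and did not pass. Without that library 3 of the 73 were called, without 48 h replicate 3 24 were, and without 0 h replicates 1, 2 or 3 the counts were 5, 7 and 7.

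Sugar metabolism moved gene by gene within families. Of 30 trehalose and raffinose genes 9 rose and 5 fell (6 and 9 with library-total scaling). Trehalose-phosphate phosphatase 9 (Zm00001d029371), of the enzymes that turn the sugar signal trehalose 6-phosphate into trehalose, rose from 4.61, 5.64 and 4.25 to 275, 583 and 530.3 FPKM (6.25 ± 0.73, adjusted p = 3.47e-05). Trehalose-6-phosphate synthase5 (Zm00001d005687) fell from 19.7, 56.4 and 20.5 to 1.21, 2.58 and 1.13 FPKM (-3.52 ± 0.41). Raffinose is made by galactinol-sucrose galactosyltransferases. One such gene (Zm00001d039685) rose from 10.5, 13.3 and 5.88 to 146, 187 and 436 FPKM (4.46 ± 0.97), and another (Zm00001d019163) fell from 806, 984 and 70.1 to 7.71, 9.6 and 26.6 FPKM (-4.81 ± 0.89, adjusted p = 0.000914). Of 114 starch and sucrose genes, 23 rose and 12 fell (11 and 34 with library-total scaling; 22 called without 0 h replicate 1, in place of 35). The bidirectional sugar transporter SWEET2b (Zm00001d043735) rose from 27.7, 21.2 and 31.6 to 385, 779 and 1022 FPKM (4.62 ± 0.79), and granule-bound starch synthase1b (Zm00001d019479), which makes amylose, from 3.58, 1.03 and 3.23 to 82.0, 139 and 134 FPKM (5.09 ± 0.83).

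Membrane lipid genes had 19 of 81 higher and 12 lower (10 and 27 with library-total scaling). Enzymes of the chloroplast galactolipids were among the risers. A digalactosyldiacylglycerol synthase 1 gene (Zm00001d003750) rose from 4.74, 4.88 and 3.41 to 68.1, 35.2 and 52.7 FPKM (3.27 ± 0.74) and monogalactosyldiacylglycerol synthase 3 (Zm00001d018406) from 5.1, 5.56 and 6.27 to 54.1, 51.9 and 69.5 FPKM (3.15 ± 0.51). In phenylpropanoid and lignin synthesis 17 of 74 rose and 14 fell (12 and 20). Trans-cinnamate 4-monooxygenase (Zm00001d009858), the second enzyme of the pathway, rose from 36.0, 80.3 and 32.1 to 1053, 804 and 1165 FPKM (4.43 ± 0.51, adjusted p = 3.28e-05), and phenylalanine ammonia lyase5 (Zm00001d051163), a gene of the first enzyme, fell from 16.0, 32.3 and 12.8 to 11.3, 1.8 and 0.683 FPKM (-2.36 ± 0.62). Flavonoid genes had 9 of 59 higher and 9 lower (5 and 14), near the background. Of 59 class III peroxidases 12 rose and 8 fell (10 and 13), and of 50 antioxidant enzymes 7 rose and 3 fell (2 and 9), with 5 called without 48 h replicate 2. A phospholipid hydroperoxide glutathione peroxidase gene (Zm00001d002704), of the enzymes that repair oxidised lipids, went from 49.3, 86.9 and 38.7 to 629, 627 and 1196 FPKM (3.80 ± 0.48, adjusted p = 5.85e-05). Numbers in brackets after the counts are again those with library-total scaling.

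Genes of growth and protein synthesis showed a mixture. Cytosolic ribosomal proteins had 8 of 282 higher and 23 lower, and 30S and 50S ribosomal proteins 3 of 85 higher and 9 lower, both below the background; library-total scaling gave 0 and 69, and 0 and 23. Without 0 h replicate 1 the called members were 19 and 5 in place of 31 and 12. The 12 called 30S and 50S members were 5 to 7 without 0 h replicate 2 or 3 or 48 h replicate 1 or 2. Histones had 12 of 68 higher and 16 lower (8 and 27). A histone H2A gene (Zm00001d021300) fell from 24.9, 19.2 and 28.6 to 0, 0 and 0.802 FPKM (-4.36 ± 0.36, adjusted p = 5.78e-06), and the probable histone H2A.1 gene Zm00001d021706 rose from 4.84, 3.36 and 6.95 to 92.8, 49.3 and 61.2 FPKM (3.50 ± 0.69). Of 44 cyclin and DNA replication genes 5 rose and 7 fell (3 and 15). Expansins, which loosen walls during growth, and xyloglucan enzymes had 11 of 45 higher and 13 lower (6 and 19). Alpha expansin1 (Zm00001d043047) fell from 21.7, 9.69 and 27.2 to 0.24, 0.635 and 0.679 FPKM (-3.66 ± 0.55, adjusted p = 0.000193). Aquaporins, the water channels, had 2 of 29 higher and 9 lower (2 and 12). Of the 9 plasma membrane aquaporins 6 fell and 0 rose, under both scalings. Since library-total scaling moved changes downward as a whole, it was no check of these falls. A plasma membrane intrinsic protein2 gene (Zm00001d019563) fell from 267, 245 and 534 to 80.7, 83.3 and 59.7 FPKM (-2.13 ± 0.34) and another of that name (Zm00001d051174) from 41.5, 49.9 and 75.5 to 4.37, 4.17 and 5.44 FPKM (-3.29 ± 0.51).

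Autophagy and senescence genes had 3 of 52 higher and 13 lower, and 0 and 29 with library-total scaling. DIN1 (Zm00001d014816), a senescence-associated protein whose Arabidopsis relative is induced by darkness, fell from 203, 172 and 217 to 26.1, 49.7 and 42.9 FPKM (-2.33 ± 0.34, adjusted p = 0.000167). Autophagy8a (Zm00001d006474), which marks the autophagosome membrane, was called higher at 169.8, 178 and 184 against 76.9, 121 and 87.5 FPKM (0.91 ± 0.26). Its direction flipped with quantile normalization (-0.13), and it was not called with library-total scaling (0.067) or without 0 h replicate 1 (0.77). Heat shock proteins and chaperones had 19 of 182 higher and 33 lower (12 and 73), and RNA helicases and RNA-binding proteins 12 of 106 higher and 13 lower (5 and 35). A heat shock cognate 70 kDa protein gene (Zm00001d028630) rose from 69.7, 112 and 27.8 to 1615, 1029.9 and 1244 FPKM (4.38 ± 0.82, adjusted p = 0.000977). A DEAD-box ATP-dependent RNA helicase 52C gene (Zm00001d048924) rose from 7.24, 9.41 and 6.25 to 90.3, 95.8 and 92.3 FPKM, with little spread among the 48 h libraries (3.46 ± 0.31, adjusted p = 8.43e-06). Of 133 ATL and U-box ubiquitin ligases 30 rose and 29 fell (20 and 46). Of 99 chitinases, glucanases and pathogenesis-related proteins, 22 rose and 21 fell (17 and 28). Endochitinase precursor4 (Zm00001d017152) rose from 20.5, 22.4 and 9.11 to 646, 573 and 230.3 FPKM (4.68 ± 0.52) and Thaumatin-like protein 1 (Zm00001d047938) from 0.823, 0.679 and 2.15 to 122, 84.3 and 214 FPKM (5.95 ± 0.50), whereas Chitinase 8 (Zm00001d029794) fell from 111, 822 and 37.8 to 9.36, 1.71 and 3.15 FPKM (-4.97 ± 1.13, adjusted p = 0.00346).

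Some falls rested on 0 h libraries that differed strongly among themselves. Of the 4164 genes called lower, 201 (4.83%) spanned more than 2 log2 units among the 0 h libraries, a share close to that among the 4274 genes called higher (201, or 4.70%). In 138 of the 201 genes called lower replicate 2 was the highest library, and in 135 replicate 3 was the lowest. Malate synthase1 (Zm00001d003247), an enzyme of the glyoxylate cycle by which seedlings turn fat into sugar, stood at 95.8, 530.2 and 60.5 FPKM at 0 h and 0.654, 5.46 and 4.36 FPKM at 48 h (-5.25 ± 1.27, adjusted p = 0.00512). Proteolipid membrane potential regulator4 (Zm00001d028718) was at 82.9, 471 and 0.426 FPKM at 0 h and listed at 0 at 48 h (adjusted p = 0.0242). Its call was lost without 0 h replicate 1 (-4.70) or 2 (-3.45), or without any 1 of the 48 h replicates (-5.26 each). A stearoyl-acyl-carrier-protein desaturase gene (Zm00001d024273), whose enzyme puts the first double bond into a fatty acid, had 6.17, 80.4 and 2.62 FPKM at 0 h. The Thaumatin-like protein gene Zm00001d033455 had 143, 623 and 19.2 FPKM, and its call was lost when recovered reads were tested with limma-voom. Among the 4274 genes called higher, 300 (7.02%) spanned more than 2 log2 units at 48 h, with replicate 1 the highest in 140. What set these libraries apart was not tested.

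**Figure D4:**
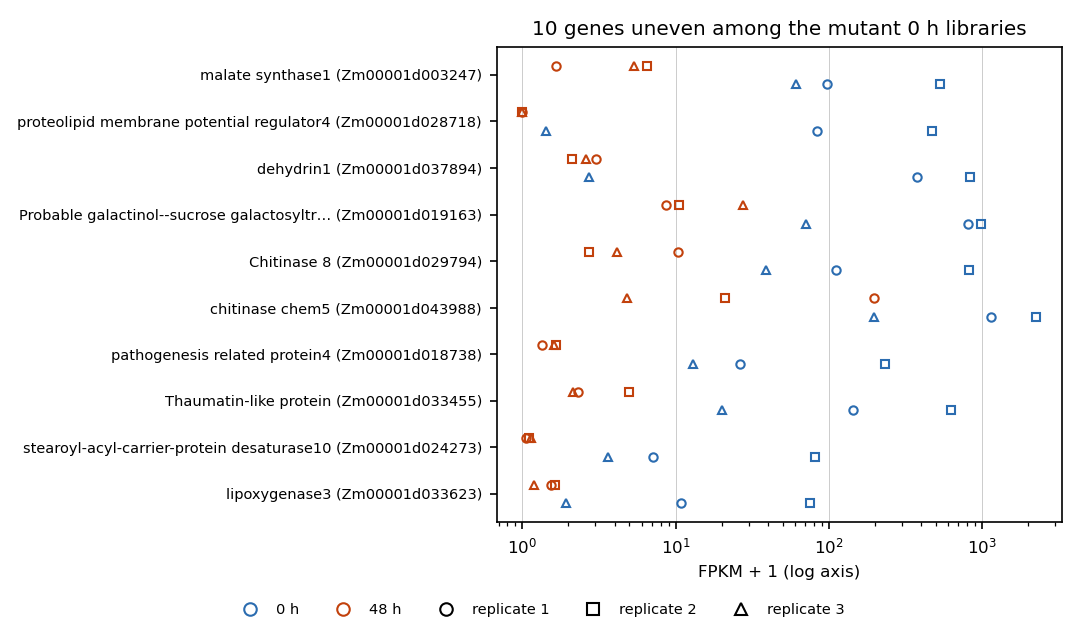
FPKM + 1 on a log axis for 10 genes called lower, chosen after the values were seen for the spread of their 0 h libraries, with 1 symbol per mutant library, coloured by time (blue, 0 h; orange, 48 h) and shaped by replicate number. The blue squares of 0 h replicate 2 lie to the right of the blue triangles of replicate 3 in each row, by more than 1 order of magnitude in 9 of the 10 rows.

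At the top of the expression range, 5 genes were shared between the 10 most abundant at 0 h and at 48 h. The 10 most abundant held 6.27 to 7.40% of the summed FPKM at 0 h and 7.21 to 9.02% at 48 h. NDR1/HIN1-like protein 2 (Zm00001d026662), of a family first known from disease resistance in Arabidopsis, entered the top 10 by rising from 169.8, 214 and 168 to 7518, 4816 and 4043 FPKM (4.84 ± 0.63, adjusted p = 7.38e-05). Horcolin (Zm00001d023516), a lectin, was the most abundant gene at 0 h with 5063, 7606 and 4513 FPKM, and its 48 h values of 1534, 6053 and 10037 FPKM overlapped these (-0.30 ± 1.03, adjusted p = 0.844). Genes at 1 FPKM or more in all 3 libraries numbered 17303 at 0 h and 15776 at 48 h, on the deposited scale, on which the typical gene is level. Calls were spread over the genome, with 16.3 to 20.4% of tested genes higher and 16.3 to 20.3% lower on chromosomes 1 to 10.

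Changes in the mutant were then set beside those of B73 over the same 48 h, which share no library with them. B73 had 5374 called genes (23.2%), 2943 higher and 2431 lower. Of the mutant's higher genes 2422 were also higher in B73, which is 56.7% of the mutant's and 82.3% of B73's. For the lower genes the overlap was 1708, or 41% of the mutant's and 70.3% of B73's, and 6 genes were called in opposite directions. Of the 8438 genes called in the mutant, 95.6% had the same sign in B73. The counts do not compare the sizes of the responses. The spread within the 48 h groups was 0.404 log2 units (median SD) in the mutant and 0.463 in B73. Without B73 48 h replicate 1, 3020 genes were called in B73, and without 0 h replicate 1 or 2, 3307 and 3391. On the first principal component B73 48 h replicate 1 lay at 106.4, near the mutant 48 h libraries, and replicates 2 and 3 at 46.6 and 45.3. The 12-oxo-phytodienoic acid reductase1 gene shows that pattern: its B73 values at 48 h were 4384, 1063 and 1293 FPKM, and the B73 change was 9.86 ± 0.98 (0.96 ± 1.38 for mutant minus B73, adjusted p = 0.898).

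The difference of the 48 h changes, mutant minus B73, was tested directly. It was called for 2 of 23141 genes (0.00864%), and 1725 genes had an unadjusted p under 0.05. Recovered reads tested with limma-voom gave 0 calls, with 1627 at an unadjusted p under 0.05. The 2 deepest falls were not shown to differ between genotypes. For the gene annotated as indole-2-monooxygenase, the B73 change was -2.80 ± 1.24 (adjusted p = 0.113), and the difference was -4.19 ± 1.75 (adjusted p = 0.627). For Lichenase-2 the B73 0 h libraries were at 53.5, 368 and 947 FPKM and the difference was -4.33 ± 1.44 (adjusted p = 0.506). In B73 6 of 11 DREB/CBF factors, 3 of 4 PEPC kinases and 14 of 37 clock genes were called higher, and the difference was called for 0 members of each gene list. The gene annotated as NAD(P)H-quinone oxidoreductase subunit L (Zm00001d005741, chromosome 2, 185583870 to 185586367, minus strand), named for a subunit of the chloroplast NDH complex, was at 56.5, 12.7 and 50.9 FPKM in mutant 0 h leaves. It was at 0.565, 1.29 and 0 FPKM at 24 h and listed at 0 in all mutant 48 h libraries and in all B73 libraries at 0, 24 and 48 h. In recovered reads these were 588, 112 and 528 reads at 0 h and 5, 16 and 0 reads at 24 h. SNORD25 (ENSRNA049459026, chromosome 5, 190053624 to 190053709, plus strand), a small nucleolar RNA of 86 bases, was listed at 0 in the mutant at 0 and 24 h and had 22, 22 and 17 reads at 48 h (21.1, 20.6 and 19.6 FPKM). B73 had 1 read in 1 library at 48 h and none in its other 8 libraries. In poly(A)-selected libraries of unknown strand setting, reads of this small RNA and of an overlapping transcript cannot be told apart. Both genes met the filter of 1 FPKM in 3 libraries only with the mutant group in which they are high.

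**Figure D5:**
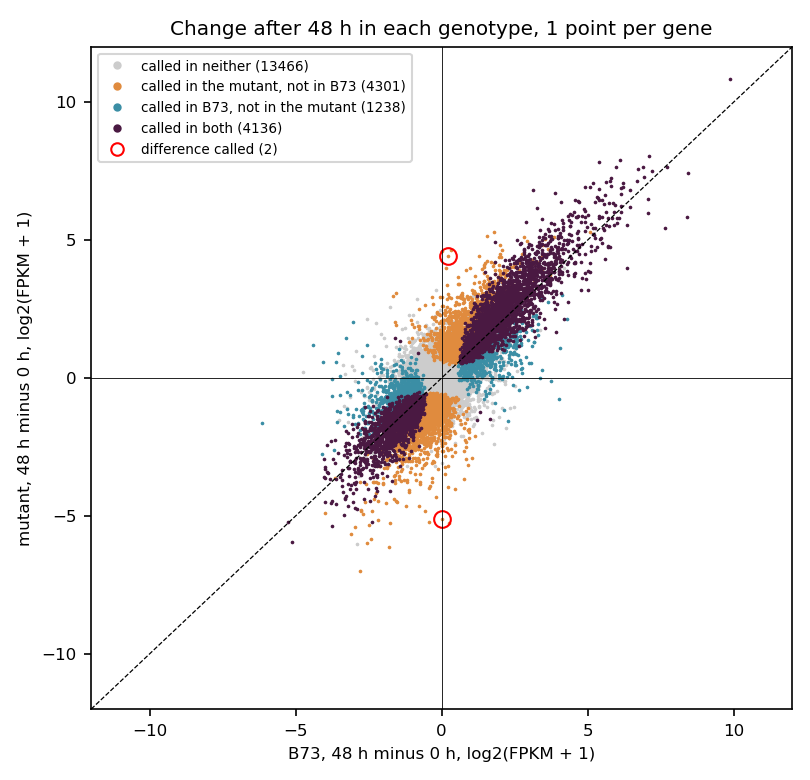
Change from 0 h to 48 h on the log2(FPKM + 1) scale in the mutant (vertical axis) against B73 (horizontal axis), 1 point per tested gene, coloured by where the gene was called, with the line of equal change dashed. The cloud runs along the line, 4136 genes were called in both genotypes, and red circles mark the 2 genes whose difference was called.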

How the data were processed

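RNA was measured by strand-marked (dUTP), poly(A)-selected RNA sequencing in 18 leaf libraries, 3 for each of 6 groups of genotype and time, and samples were grouped by their titles. The authors deposited FPKM values per gene. Per the submitters' processing notes, the tools included HISAT2 2.0.5 after fastp, DESeq2 1.20.0, and featureCounts 1.5.0-p3. No source used here gives the genome build or the strand setting of the counting, so reads of overlapping and antisense genes cannot be told apart, and reads of near-identical copies (histones, ribosomal proteins, the 12-oxo-phytodienoic acid reductase pair) are uncertain. Contig names in the table carry B73V4, and coordinates are those of the table. Values were whole multiples of 1 read in 100% of cases (tolerance 0.01 reads), from which reads were recovered; 1 read is therefore worth a different FPKM in each library, and this counting error limits weakly expressed genes. Replicates differed by more than sampling noise.

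Genes with 1 FPKM or more in 3 or more libraries were kept, log2(FPKM + 1) was fitted with limma 3.58.1 in R 4.3.3 (6 group means over all 18 libraries, 12 residual degrees of freedom, eBayes with trend), and p-values were adjusted by Benjamini-Hochberg over 23141 genes with a threshold of 0.05. Errors of log2 changes are standard errors. The script was tested on simulated data. Alternatives were library-total, quantile and median-of-ratios scaling, no filter, a pseudocount of 0.1, array weights, the compared groups alone, organelle genes left out, limma-voom on recovered reads, the replicate number as a block, and each replicate left out. Median-of-ratios scaling returned the same 8438 calls, as the deposited values already follow size factors, so it was no separate check. Leaving out mutant 24 h replicate 2 was added after seeing the data.

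The comparison, the gene lists and the tests were chosen with earlier results of these data known. Some lists (photosystem, cytokinin, dehydrin and LEA, cytosolic ribosomal) were trimmed after values were seen, and lists were drawn from names and descriptions. Named genes are the 12 largest rises and falls among described genes whose groups do not overlap and whose higher group averages 5 FPKM or more, up to 4 called members each way per list, all members of lists of 12 or fewer, the 10 most abundant genes at each time, genes under 0.1 FPKM in all libraries of one time and at 10 FPKM or more in all of the other, and genes called for the difference; exceptions are named. Gene and promoter sequences were not used here, and no motif was searched.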

Additional observations from a re-analysis of the deposited data

Results flagged for a closer look

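In 2 genes the 48 h change in the mutant differed from that in B73 by a test of the difference itself (limma, Benjamini-Hochberg adjusted p under 0.05). For the gene annotated as NAD(P)H-quinone oxidoreductase subunit L (Zm00001d005741) the difference, mutant minus B73, was -5.11 log2 units. For reads assigned to the small nucleolar RNA SNORD25 (ENSRNA049459026), which cannot be told apart from those of an overlapping transcript, it was 4.19 log2 units. Neither was called in limma-voom on recovered reads, which gave 0 calls for the difference and 1627 genes at an unadjusted p under 0.05. The first gene met the filter of 1 FPKM in 3 libraries only with the mutant 0 h group, and the second only with the mutant 48 h group. Had they been low there too, neither would have been tested, so the filter and the call rest on the same libraries. What lies behind either difference was not tested.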

How the results depend on the processing

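The count of genes called in the mutant stayed within 1.5 times of 8438 under all alternatives, from 6231 (without 0 h replicate 1; 6231 to 7144 with 1 compared library left out) to 11840 (array weights, whose iteration stopped before converging). Same-numbered mutant libraries did not deviate together (correlations -0.11, -0.21 and -0.09 across 23141 genes), and the main test did not pair them. Deviations from means of 3 libraries constrain each other, so these correlations cannot exclude a shared batch. With the replicate block 8339 genes were called, and in B73 5326. The B73 count was 8650 with array weights and 3020 to 5542 with 1 compared library left out. The difference of changes was called for 88 genes with array weights, 24 with no filter, 5 with the compared groups alone, 3 with a pseudocount of 0.1, 0 with limma-voom (1627 at an unadjusted p under 0.05), and 2 to 5 with 1 library left out; the cause was not tested. Directions reversed for autophagy8a (Zm00001d006474, -0.13 with quantile normalization) and autophagy18a (Zm00001d011920, -0.049 with library-total scaling). Of 361 named genes 333 were called, of which 245 were called in each alternative.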

Other observations

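The share of genes called depended on level. It was 18.8% among tested genes with a mean under 1 FPKM over the mutant 0 h and 48 h libraries, 36.3% at 1 to 10 FPKM, 42.2% at 10 to 100 FPKM and 53.3% at 100 to 1000 FPKM, and 28.2% of the 85 genes above 1000 FPKM. Calls at 100 to 1000 FPKM were mostly rises (436 higher and 59 lower), and calls at 1 to 10 FPKM mostly falls (1511 and 2888). With library-total scaling the same bins of genes gave 328 higher and 127 lower, and 750 and 5378. Genes at 100 FPKM or more numbered 582, 679 and 623 in the 0 h libraries and 1294, 1301 and 1353 in the 48 h libraries. This gap depends on the scaling, since the divisor of the deposited values was lower at 48 h. With library-total scaling the numbers were 768, 889 and 841 at 0 h and 975, 915 and 935 at 48 h.

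Some families not described above are given by counts and were picked after the values were seen. Of 103 tested genes named AP2-EREBP, DNA-binding factors of which the DREB class is a part, 36 rose and 10 fell (25 and 22 with library-total scaling). Of 21 MAP kinase kinase kinases, which start the cascade, 12 rose and 2 fell (10 and 3). Calcium-transporting ATPases had 7 of 15 higher and 1 lower (3 and 2). Of 14 genes annotated H4C7, 3 rose and 5 fell (2 and 6). Trehalose-phosphate phosphatases had 3 of 6 higher and 1 lower (2 and 2), and trehalose-phosphate synthases 5 of 14 higher and 3 lower (3 and 3). None of these counts was tested as a group.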
